A study of Mus musculus with 6 samples.

Results

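The 40 genes described here encode the enzymes and transporters that turn glucose into lactate and the regulators and targets of the hypoxia-inducible factors (HIFs). They were chosen by name from the gene-name column of a count table of 54532 genes. The list holds 24 glycolysis and lactate genes, from the glucose transporter *Slc2a1* to *Pfkfb4*, and 16 HIF factors and targets, from *Hif1a* to *Higd1a*. A total of 41 rows carried one of these names, because *Aldoa* has a second row with 37 counts in all, and the row with more reads was used. RNA was sequenced from chondrogenic cells of 1-month-old *Gli1-CreERT2; tdTomato* mice on a C57BL/6 background, taken 24 h after tamoxifen (TAM). Gli1+ cells were the tdTomato+ fraction and Gli1- cells the tdTomato- fraction of CD45-CD31-Ter119- cells, with 3 libraries for each. All mice carried the CreERT2 allele and the reporter and all received TAM, so no wild-type or untreated library was compared. TdTomato marks cells in which the *Gli1* locus drove CreERT2 while TAM was present, together with any descendants. The sample labels give the growth plate as the tissue and the study's text gives costal cartilage.

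Glycolysis splits glucose into pyruvate, and lactate dehydrogenase turns pyruvate into lactate, which leaves the cell through monocarboxylate transporters. In normal oxygen the EGLN prolyl hydroxylases mark HIF-alpha proteins for destruction. In low oxygen HIF-alpha persists, pairs with ARNT and raises transcription of many glycolytic genes, *Vegfa* and collagen-modifying enzymes. Cartilage has no blood vessels, and growth plate chondrocytes need HIF-1-alpha to survive in its low-oxygen core. Because HIF-alpha is controlled at the protein level, its mRNA does not measure its activity.

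The libraries held 17114101 to 18602482 counts on genes. *Gli1*, the gene behind the sort, was at 4.55, 6.39 and 7.98 CPM (counts of a gene scaled to a common library total, after TMM normalization) in Gli1+ replicates 1 to 3 and at 0.724, 1.26 and 2.43 CPM in Gli1- replicates 1 to 3. It was higher in all 3 Gli1+ libraries, with a log2 fold change of 2.09 (SE 0.68) and an adjusted p of 0.9999 in the edgeR fit. The 12 chondrocyte markers summed to 8713 to 23732 CPM in Gli1+ and 7099 to 31664 CPM in Gli1- libraries, led by *Col2a1* and *Col9a2*, with *Matn1* at 0 in Gli1+ replicate 1. Hypertrophic markers summed to 6570 to 8331 CPM in Gli1+ and 2242 to 9558 CPM in Gli1- libraries, and fibroblast markers to 1615 to 3421 and 1795 to 7774 CPM. Endothelial markers summed to at most 13.2 CPM, muscle markers to at most 43.8 CPM and erythroid markers to at most 19.96 CPM. Gli1- replicate 1 stood apart, since its 10 leukocyte markers, led by *S100a8* and *S100a9*, summed to 3624 CPM against 43.0 to 189 CPM in the other libraries. *Ptprc*, which encodes the CD45 that the sort was to remove, was at 54.7 CPM there and at 1.11 CPM or less elsewhere. Gli1+ replicate 1 had counts on 15000 genes and the other libraries on 20666 to 23360. The study's text states that Gli1+ and Gli1- cells shared their mice, and libraries of one number were taken as pairs, although the labels tie no number to a mouse and Gli1+ replicate 1 correlated slightly more with Gli1- replicate 3 than with its own number.

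No gene in the 2 lists was called different between Gli1+ and Gli1- cells at an absolute log2 fold change over 1 and an adjusted p under 0.05. All 40 genes passed the filter on low counts, and each had an adjusted p of 0.9999 from edgeR. None of the 14801 genes tested was called by this edgeR fit either, a background of 0%. The study's text, in contrast, reports genes that differ between these populations at the same thresholds. Its methods do not name the tool behind those calls, and the reason for the difference was not tested. DESeq2 without the pairs called 0 of the 40, beside 27 of all genes tested, and limma-voom 0 of the 40, beside 0 of all genes. Fits that used the pairs are given below. At an unadjusted p under 0.05, 2 genes were lower in Gli1+ cells, *Hk1* and *Pfkfb4*, beside 2.04% of all genes tested. At the same threshold 1 was higher, *Car12*, beside 1.43% of all genes. The p-values set each difference against the spread between these libraries and speak for nothing wider. The study's methods describe the libraries as biological replicates. Without the pairs, that spread includes differences shared by libraries of one replicate number.

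Most fitted values of the glycolysis and lactate list were lower in Gli1+ cells, and those of the HIF list were mixed, with the difference between the lists not tested. Of the 24 glycolysis and lactate genes, 20 had a lower fitted level in Gli1+ cells and 4 a higher one, with a median log2 fold change of -0.44. Of the 16 HIF factors and targets, 9 had a higher and 7 a lower fitted level, with a median of 0.16. Over all genes tested the median was 0.00133, with 7413 higher and 7388 lower. When each library was left out in turn, the glycolysis median ran from -0.73 without Gli1+ replicate 2 to -0.21 without Gli1- replicate 2. It was -0.25 without Gli1+ replicate 1. The HIF median fell to -0.02 without Gli1+ replicate 3 and rose to 0.44 without Gli1- replicate 2. Summed over the 24 genes, the level was 2803, 4115 and 4346 CPM in Gli1+ replicates 1 to 3 and 5159, 6214 and 3787 CPM in Gli1- replicates 1 to 3, so the groups overlapped. Dissociation stress genes summed to 2005, 16202 and 6334 CPM in Gli1+ replicates 1 to 3 and to 11275, 33314 and 17160 CPM in Gli1- replicates 1 to 3. Of those 10 genes 9 had a lower fitted level in Gli1+ cells, with a median log2 fold change of -1.27. Of the 8 fibroblast markers 7 also had a lower fitted level, with a median of -1.27, at sums of 2526, 3421 and 1615 CPM in Gli1+ replicates 1 to 3 and 1795, 7774 and 2322 CPM in Gli1- replicates 1 to 3. The part of either list in the result was not tested. In such bulk samples, fewer cells that use a gene and less of its RNA per cell cannot be told apart.

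**Figure D1:**
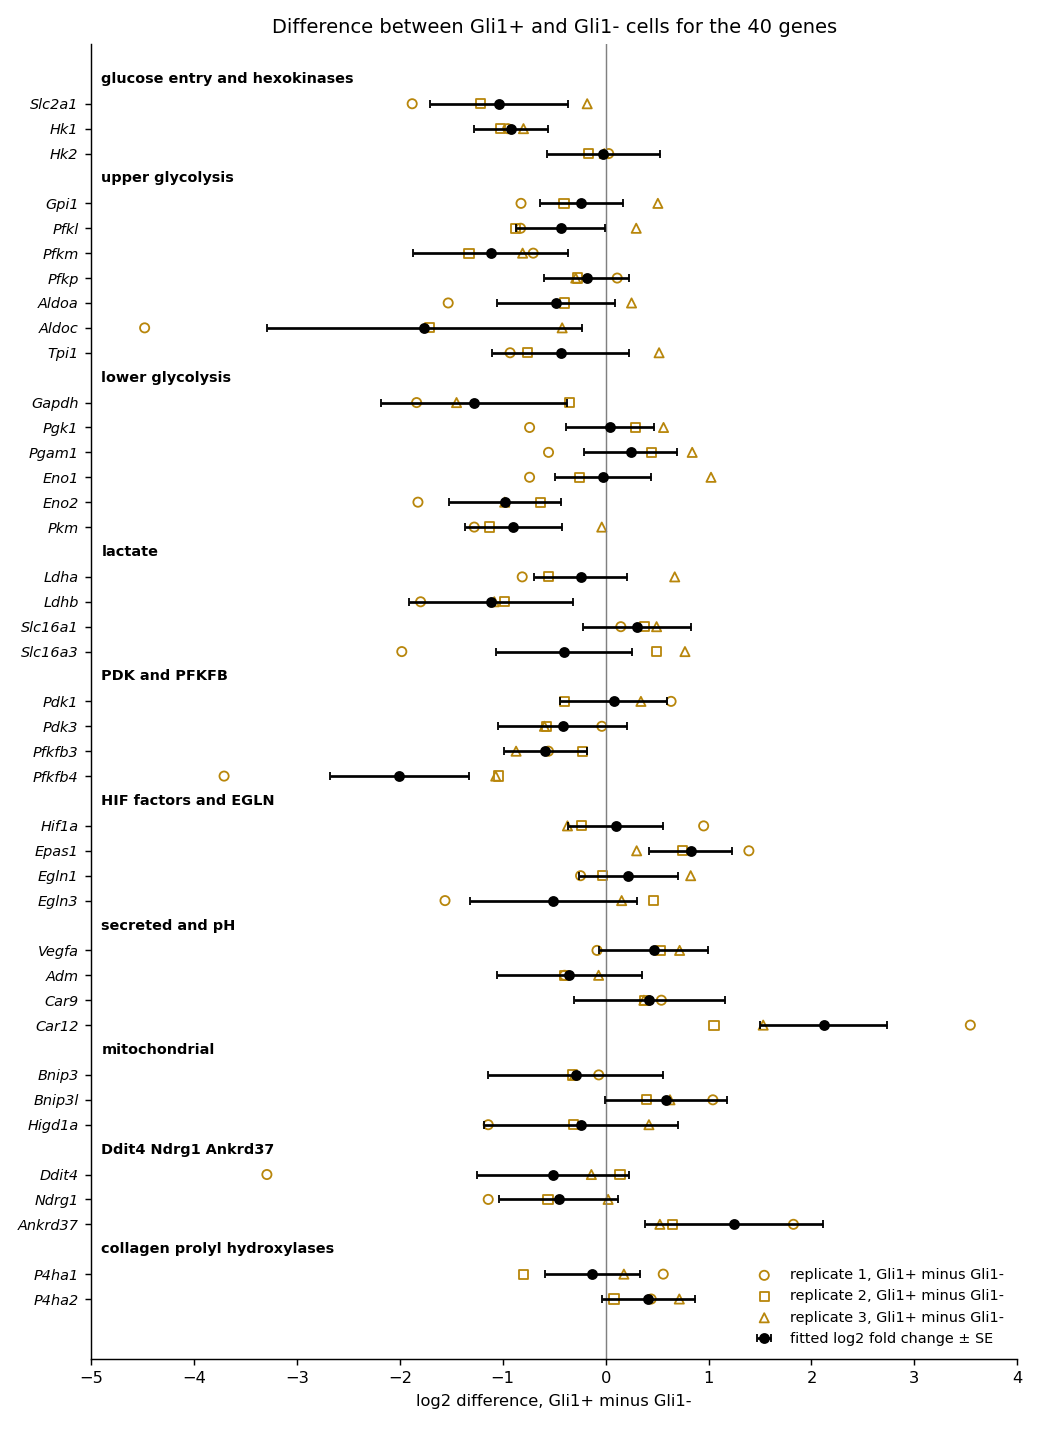
Log2 difference between Gli1+ and Gli1- cells on the x axis for each of the 40 genes on the y axis, grouped by role. Black points and bars are the fitted log2 fold change and its standard error over 3 against 3 libraries, and open symbols are the differences within replicates 1, 2 and 3. *Pfkfb4* has the lowest fitted value of the list, -2.004, and *Car12* the highest, 2.12.

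A set of 6 of the 40 genes had libraries that did not overlap between the groups, 3 of them in each list. *Hk1*, *Pfkfb3* and *Pfkfb4* were lower in every Gli1+ library than in any Gli1- library, which 4.45% of all genes tested also were. *Epas1*, *Car12* and *Ankrd37* were higher in every Gli1+ library than in any Gli1- library, beside 4.04% of all genes. Among 33 tested further glycolysis and pyruvate genes, 3 were higher and 2 lower without overlap. Among 49 further hypoxia genes, 0 were higher and 0 lower. Whether the lists differ in this was not tested. Within pairs, 13 of the 40 genes were lower in Gli1+ cells in 3 of 3 pairs and 7 were higher in 3 of 3. The background was 19.8% of all genes lower and 17.6% higher.

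Fits that used the pairs left a lower p for more of the genes. With the replicate block in edgeR, 7 of the 40 genes had a lower level at an unadjusted p under 0.05 (*Slc2a1*, *Hk1*, *Pfkm*, *Gapdh*, *Eno2*, *Ldhb* and *Pfkfb4*), beside 5.25% of all genes. *Epas1*, *Car12* and *Bnip3l* were the 3 that were higher, beside 3.36% of all genes, and no gene passed the adjusted threshold. DESeq2 with the replicate block called *Ldhb* lower, beside 2.05% of all genes, and *Car12* higher, beside 0.75%. *Gli1*, the gene behind the sort, was also called higher by it (log2 fold change 2.21, adjusted p = 0.01975). EdgeR with the replicate block did not call *Gli1* (adjusted p = 0.381). A further edgeR fit with the block left out both libraries of replicate 1, the pair that holds the leukocyte-rich library, and has 1 residual degree of freedom. It called *Pfkm*, *Aldoc*, *Ldhb* and *Pfkfb4* lower, 4 genes beside 4.67% of all genes, and *Car12* higher, beside 3.16%. This fit was added after seeing the data. By the adjusted p alone it had 13 of the 40 genes, beside 2268 of all 15331 genes. Besides *Car12*, those that were higher were *Pgam1* (log2 fold change 0.64), *Slc16a3* (0.64) and *Vegfa* (0.62).

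HIF binds DNA at a short core that reads ACGTG or GCGTG, and glycolytic promoters often hold it. Both motifs were searched on both strands in the 250 bases before the RefSeq start of each gene (GRCm38.p6), which 37 of the 40 genes have, leaving *Ndrg1*, *Bnip3l* and *Epas1* by name only. Some genes have more than 1 RefSeq start, so the 37 genes have 51 windows, and a gene holds a motif if any of its windows does. A palindromic CACGTG counts once on each strand, and overlapping matches of the same strand or of both strands were each counted. At least 1 motif lay in 33 of the 37 genes (89.2%), against 61% of the 10509 tested genes that have a window and 41.5% of all 27025 genes of the RefSeq table. ACGTG was found in 59.5% of the 37 genes against 25% of tested genes and 18.5% of all genes, and GCGTG in 67.6% against 49.8% and 30.9%. These windows were also rich in G and C, with a median of 64% against 61.2% in tested genes and 52.8% in all genes. The list was chosen to hold HIF targets and glycolytic genes, so a higher share is built into the comparison. The parts of this choice and of base composition were not tested. *Eno2*, *Gpi1*, *Tpi1* and *Car12* held neither motif, which says only that these letters are not in these windows.

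The windows printed here belong to the genes with the smallest unadjusted p that hold a motif, and to *Car12*, the gene with the smallest p, which holds none. They show where the core lies in these windows, or that it is not found in that of *Car12*. *Epas1*, without a window, and *Eno2*, without a motif, had a smaller edgeR unadjusted p (0.0757 and 0.109) than *Slc2a1* (0.16). Each runs 5' to 3' on the gene's strand in GRCm38.p6, with motif matches on either strand in capitals, and stops where the gene's own GENCODE M21 exons begin or at most 30 bases later at the end of a match. *Pfkfb4* (chr9:108991652-108991789, plus strand) has 1 match, which starts 117 bases before the RefSeq start. *Hk1* (chr10:62340543-62340671, minus strand, 1 of 2 annotated windows) has its first match 196 bases before the start, with others at 15 and 12 bases that are not printed because they lie in exon bases. *Slc2a1* (chr4:119108495-119108713, plus strand) has matches at 61 and 36 bases before the start. *Pkm*, with the next smallest p after *Hk1* among genes that hold a motif, has its match at 75 bases within exon bases and is not printed. *Car12* is shown at chr9:66713436-66713685 on the plus strand.
Pfkfb4: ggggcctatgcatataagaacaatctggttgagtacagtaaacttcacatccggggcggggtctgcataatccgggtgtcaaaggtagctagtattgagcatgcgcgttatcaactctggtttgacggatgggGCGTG
Hk1: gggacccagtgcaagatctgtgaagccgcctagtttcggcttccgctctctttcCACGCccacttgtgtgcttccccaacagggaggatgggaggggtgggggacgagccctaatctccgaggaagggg
Slc2a1: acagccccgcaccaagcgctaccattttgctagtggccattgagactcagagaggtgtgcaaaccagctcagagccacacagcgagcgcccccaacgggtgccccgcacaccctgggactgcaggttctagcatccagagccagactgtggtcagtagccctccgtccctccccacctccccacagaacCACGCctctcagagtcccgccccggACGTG
Car12: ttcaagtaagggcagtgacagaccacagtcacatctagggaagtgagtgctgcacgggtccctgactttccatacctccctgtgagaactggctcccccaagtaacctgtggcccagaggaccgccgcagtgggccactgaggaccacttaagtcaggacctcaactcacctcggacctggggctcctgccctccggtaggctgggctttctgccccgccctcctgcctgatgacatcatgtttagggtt

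Glucose enters chondrocytes mainly through the transporter encoded by *Slc2a1* (GLUT1) and is phosphorylated by hexokinases. *Slc2a1* (ENSMUSG00000028645, chr4:119108711-119137983 in mm10) was at 150, 619 and 446 CPM in Gli1+ replicates 1 to 3 and at 554, 1437 and 506 CPM in Gli1- replicates 1 to 3. The level was lower in Gli1+ cells of every pair, while the groups overlapped because Gli1+ replicate 2 exceeded 2 Gli1- libraries. Its log2 fold change was -1.04 (SE 0.67, edgeR unadjusted p = 0.16, adjusted p = 0.9999) and, with the replicate block, -1.10 (SE 0.40, unadjusted p = 0.0362, adjusted p = 0.546). Without Gli1+ replicate 1, its lowest library, the value was -0.66, and over the removal of each library it ran from -1.49 to -0.41.

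*Hk1* (ENSMUSG00000037012, chr10:62268855-62379908), the broadly expressed hexokinase, had the smallest standard error of the 40 genes. It was at 95.8, 75.7 and 95.8 CPM in Gli1+ replicates 1 to 3 and at 185, 154 and 167 CPM in Gli1- replicates 1 to 3. All Gli1+ libraries lay below all Gli1- libraries, and the 3 within-pair differences were -0.95, -1.02 and -0.80 on the log2 scale. The fitted level was 1.89-fold higher in Gli1- cells (log2 fold change -0.92, SE 0.36, edgeR unadjusted p = 0.0334, adjusted p = 0.9999). When any 1 library was left out, the log2 fold change was between -1.02 and -0.83. The edgeR unadjusted p was then 0.1005 without Gli1- replicate 1 and under 0.05 only without Gli1+ replicate 1 or Gli1- replicate 2. In the blocked fit without replicate 1, with its 1 residual degree of freedom, the log2 fold change was -0.92 (edgeR adjusted p = 0.000224), under the fold threshold. *Hk2*, the hexokinase that HIF and growth factors induce, averaged 267.8 CPM (SD 120.5, 3 libraries) in the Gli1+ group and 271.7 CPM (SD 110.0) in the Gli1- group, and its lowest libraries were both of replicate 2.

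The upper steps of glycolysis carry glucose-6-phosphate to the triose phosphates through *Gpi1*, the phosphofructokinases *Pfkl*, *Pfkm* and *Pfkp*, the aldolases *Aldoa* and *Aldoc*, and *Tpi1*. All 7 had a lower fitted level in Gli1+ cells, and none passed a test without the pairs. *Aldoa*, the major aldolase here and the gene with the highest level per kb of the 40 (197 CPM per kb), was at 221, 726 and 485 CPM in Gli1+ replicates 1 to 3. In Gli1- replicates 1 to 3 it was at 639, 956 and 408 CPM, so the groups overlapped and the direction turned in replicate 3 (log2 fold change -0.48, SE 0.58, edgeR adjusted p = 0.9999). The value was -0.16 without Gli1+ replicate 1 or without Gli1- replicate 2, and -0.93 without Gli1+ replicate 2.

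*Pfkm*, the muscle-type phosphofructokinase, was at 4.82, 10.9 and 3.31 CPM in Gli1+ replicates 1 to 3 and at 7.91, 27.6 and 5.87 CPM in Gli1- replicates 1 to 3. It was lower in Gli1+ cells in each pair, yet the replicate 2 libraries were the highest of their group and the groups overlapped. The log2 fold change was -1.12 (SE 0.76, edgeR unadjusted p = 0.177), and -1.11 (adjusted p = 0.00197) in the blocked fit without replicate 1. Without Gli1- replicate 2 it was -0.15, and without Gli1+ replicate 2 it was -1.78. *Aldoc*, the aldolase best known from brain, had 0 counts in Gli1+ replicate 1, which allows up to 0.159 CPM, and 5.04 and 0.998 CPM in Gli1+ replicates 2 and 3. It was at 2.38, 16.7 and 1.38 CPM in Gli1- replicates 1 to 3, again highest in replicate 2. The other 4 genes had log2 fold changes between -0.44 and -0.18.

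In the lower steps, the direction of *Pgk1*, *Pgam1* and *Eno1* differed between pairs, while *Pkm* and *Eno2* were lower in Gli1+ cells in every pair. Within pairs 1 to 3 the log2 differences were -0.74, 0.29 and 0.56 for *Pgk1* and -0.74, -0.25 and 1.02 for *Eno1*. They were -0.555, 0.44 and 0.84 for *Pgam1*, with a fitted log2 fold change of 0.24 (SE 0.45). *Pkm*, whose pyruvate kinase makes the pyruvate of glycolysis, was at 356, 430 and 406 CPM in Gli1+ replicates 1 to 3. In Gli1- replicates 1 to 3 it was at 863, 939 and 417 CPM, so 2 Gli1- libraries stood above all others and Gli1- replicate 3 sat inside the Gli1+ range. The log2 fold change was -0.90 (SE 0.47, edgeR unadjusted p = 0.0946, adjusted p = 0.9999). The counts are per gene, and the PKM1 and PKM2 splice forms of *Pkm* were not separated.

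*Eno2*, the enolase of neurons that HIF also induces, was at 9.74, 37.9 and 24.6 CPM in Gli1+ replicates 1 to 3 and at 34.8, 58.7 and 48.7 CPM in Gli1- replicates 1 to 3. Only Gli1+ replicate 2 reached the Gli1- range, and the log2 fold change was -0.98 (SE 0.54, edgeR unadjusted p = 0.109; with the replicate block -1.14, SE 0.34, unadjusted p = 0.0169, adjusted p = 0.467). *Eno1*, the main enolase, had a log2 fold change of -0.03 (SE 0.47), which was 0.0019 with the replicate block and 0.0071 with limma-voom. *Eno1b*, a near-identical copy, took 6.65% to 17.8% as many counts as *Eno1*, so the split between them is uncertain. *Pgk1* averaged 370.3 CPM (SD 88.3, 3 libraries) and 359.0 CPM (SD 81.1) in Gli1+ and Gli1- cells.

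*Gapdh*, a usual reference gene, was unusually low, at 3.92, 12.2 and 29.8 CPM in Gli1+ replicates 1 to 3 and at 14.3, 15.6 and 81.6 CPM in Gli1- replicates 1 to 3. Per kb, the mean level of its pathway neighbour *Pgk1* was 25.6 times that of *Gapdh*. *Gapdh* has many processed copies in the genome, and 5 rows named as such copies held 4 counts in all, against 2895 for *Gapdh*. Whether reads that match several places were dropped is not given in the sources used here, so the *Gapdh* values are uncertain. The value of its log2 fold change was -1.28 (SE 0.90) and turned to 0.04 without Gli1- replicate 3.

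Of the lactate dehydrogenase genes, *Ldhb* was lower in Gli1+ cells in every pair and *Ldha* was not. *Ldha*, whose product favours lactate formation, was at 281, 359 and 470 CPM in Gli1+ replicates 1 to 3 and at 492, 527 and 295 CPM in Gli1- replicates 1 to 3. Its direction differed between pairs, and the log2 fold change was -0.24 (SE 0.45, edgeR adjusted p = 0.9999). *Ldhb* (ENSMUSG00000030246, chr6:142490249-142507957), whose product is the heart-type subunit, was at 3.28, 23.3 and 8.56 CPM in Gli1+ replicates 1 to 3 and at 11.7, 46.1 and 18.3 CPM in Gli1- replicates 1 to 3.

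Each pair had less *Ldhb* in Gli1+ cells, with within-pair log2 differences of -1.80, -0.98 and -1.08, while replicate 2 was the highest of both groups. The log2 fold change was -1.11 without the pairs (SE 0.79, edgeR unadjusted p = 0.198) and -1.30 with the replicate block (SE 0.33, unadjusted p = 0.00942, adjusted p = 0.42). DESeq2 with the replicate block called it at an adjusted p of 0.0476. Without the pairs, the log2 fold change was -0.37 when Gli1- replicate 2 was left out and -2.11 when Gli1+ replicate 2 was. Of the lactate exporters, *Slc16a1* was the higher one of each pair in Gli1+ cells, with a log2 fold change of 0.30 (SE 0.52), and *Slc16a3*, the hypoxia-induced one, had its highest level, 62.4 CPM, in the leukocyte-rich Gli1- replicate 1. Its log2 fold change was -0.40 with that library and 0.44 without it.

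Pyruvate dehydrogenase kinases (*Pdk1*, *Pdk3*) keep pyruvate out of mitochondria, and the PFKFB enzymes set fructose-2,6-bisphosphate, the main activator of phosphofructokinase. Both PFKFB genes were lower in Gli1+ cells without overlap. *Pfkfb3* (ENSMUSG00000026773, chr2:11471433-11554077) was at 98.4, 127 and 136 CPM in Gli1+ replicates 1 to 3 and at 145, 149 and 249 CPM in Gli1- replicates 1 to 3. The gap between the groups was narrow, since Gli1+ replicate 3 lay just under Gli1- replicate 1, and the log2 fold change was -0.59 (SE 0.41, edgeR unadjusted p = 0.188). Without Gli1- replicate 3, its highest library, the value was -0.29.

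*Pfkfb4* (ENSMUSG00000025648, chr9:108991778-109032228) showed the largest fitted decrease of the 40 genes, at a low level. It was at 1.27, 3.07 and 3.68 CPM in Gli1+ replicates 1 to 3 and at 17.9, 6.43 and 7.83 CPM in Gli1- replicates 1 to 3. The groups did not overlap, and the leukocyte-rich Gli1- replicate 1 was the highest library. The fitted level was 4.01-fold higher in Gli1- cells (log2 fold change -2.004, SE 0.67, edgeR unadjusted p = 0.0171, adjusted p = 0.9999). Without Gli1- replicate 1 the log2 fold change was -1.42 with an unadjusted p of 0.0942, and in the blocked fit without replicate 1 it was -1.08 (adjusted p = 0.0248). *Pdk1* and *Pdk3* had log2 fold changes of 0.08 (SE 0.52) and -0.42 (SE 0.63).

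**Figure D2:**
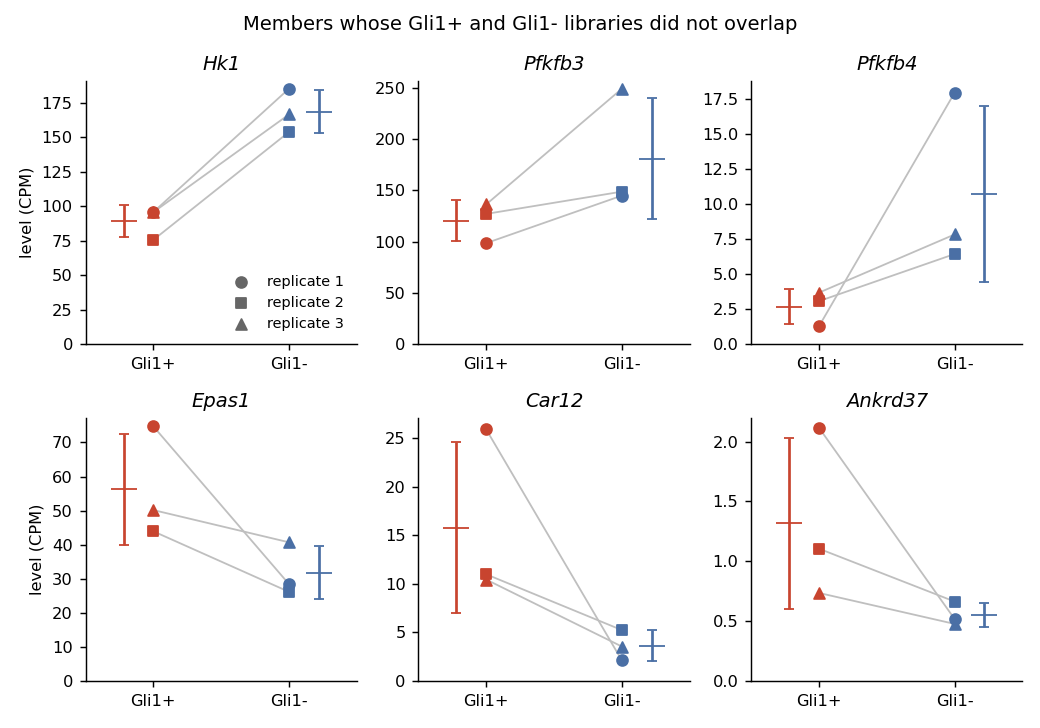
Level in CPM (y axis, from 0) in Gli1+ and Gli1- libraries (x axis) for the 6 genes whose groups did not overlap, with grey lines joining libraries of one replicate number and bars for the mean ± SD of 3 libraries. *Hk1*, *Pfkfb3* and *Pfkfb4* are lower and *Epas1*, *Car12* and *Ankrd37* higher in all Gli1+ libraries, and replicate 1 gives the widest difference for *Pfkfb4*, *Epas1*, *Car12* and *Ankrd37*.

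Among the HIF factors, *Epas1* rather than *Hif1a* separated the libraries. *Hif1a* (HIF-1-alpha), the gene of the hypoxia response best studied in growth plates, was at 704, 592 and 420 CPM in Gli1+ replicates 1 to 3 and at 364, 695 and 543 CPM in Gli1- replicates 1 to 3. The groups overlapped fully, and the log2 fold change was 0.10 (SE 0.46) with all libraries and -0.30 without both libraries of replicate 1. *Epas1* (HIF-2-alpha, ENSMUSG00000024140, chr17:86753907-86833410), known for its role in cartilage breakdown and hypertrophy, was at 74.7, 43.9 and 50.2 CPM in Gli1+ replicates 1 to 3 and at 28.4, 26.1 and 40.7 CPM in Gli1- replicates 1 to 3.

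Every Gli1+ library exceeded every Gli1- library for *Epas1*, although Gli1+ replicate 2 and Gli1- replicate 3 were close, at 43.9 and 40.7 CPM. The fitted level was 1.77-fold higher in Gli1+ cells (log2 fold change 0.83, SE 0.41, edgeR unadjusted p = 0.0757, adjusted p = 0.9999), and with the replicate block the unadjusted p was 0.0453 (edgeR adjusted p = 0.573). The log2 fold change was 0.55 without Gli1+ replicate 1 and 0.49 without both libraries of replicate 1. Of the oxygen-sensing hydroxylases, *Egln1* had a log2 fold change of 0.22 (SE 0.48). *Egln3*, itself a HIF target, was at 2.06 to 14.4 CPM with its highest level in the leukocyte-rich library, and its log2 fold change of -0.51 (SE 0.81) became 0.32 without it.

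*Vegfa* and *Adm* encode secreted factors that act on blood vessels, and *Car9* and *Car12* encode membrane carbonic anhydrases that regulate pH outside the cell. *Vegfa*, the most abundant of them, was at 337, 400 and 861 CPM in Gli1+ replicates 1 to 3 and at 357, 277 and 523 CPM in Gli1- replicates 1 to 3. Gli1+ replicate 3 was the highest library, the groups overlapped, and the log2 fold change was 0.47 (SE 0.53, edgeR adjusted p = 0.9999) with all libraries and -0.07 without Gli1+ replicate 3. All pairs had less *Adm* in Gli1+ cells, with a log2 fold change of -0.35 (SE 0.70), and more *Car9*, with 0.42 (SE 0.74) at levels of 0.983 to 3.73 CPM.

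*Car12* (ENSMUSG00000032373, chr9:66713686-66766845) had the smallest p of the 40 genes. It was at 25.9, 10.99 and 10.45 CPM in Gli1+ replicates 1 to 3 and at 2.12, 5.24 and 3.54 CPM in Gli1- replicates 1 to 3. All Gli1+ libraries were at least 10.45 CPM and all Gli1- libraries at most 5.24 CPM, with the widest gap in replicate 1. The fitted level was 4.34-fold higher in Gli1+ cells (log2 fold change 2.12, SE 0.61, edgeR unadjusted p = 0.00845, adjusted p = 0.9999). With the replicate block in edgeR the log2 fold change was 2.04 (unadjusted p = 0.0182, adjusted p = 0.481), which was not called. DESeq2 with the replicate block gave 2.03 (adjusted p = 0.0382), and the blocked edgeR fit without replicate 1 gave 1.31 (adjusted p = 0.00121). When any 1 library was left out, the log2 fold change was between 1.55 and 2.44.

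*Bnip3* and *Bnip3l* encode receptors for the removal of mitochondria, and *Higd1a* encodes an inner-membrane protein of the respiratory chain. *Higd1a*, the highest of the 3 in CPM and per kb, was at 20.1, 223 and 80.0 CPM in Gli1+ replicates 1 to 3 and at 44.5, 277 and 59.7 CPM in Gli1- replicates 1 to 3. Replicate 2 was far above the other libraries in both groups, and the groups overlapped. *Bnip3l* was at 87.7, 191 and 82.0 CPM in Gli1+ replicates 1 to 3 and at 42.6, 145 and 53.1 CPM in Gli1- replicates 1 to 3. It was higher in Gli1+ cells in each pair, by a log2 fold change of 0.58 (SE 0.59, edgeR unadjusted p = 0.354) without and 0.69 (SE 0.26, unadjusted p = 0.044, adjusted p = 0.573) with the replicate block. In the unpaired fit, leaving out Gli1+ replicate 2 gave 0.065 and leaving out Gli1- replicate 2 gave 1.31. *Bnip3* was lower in each pair by small amounts, with within-pair log2 differences of -0.07, -0.32 and -0.30.

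*Ddit4* encodes an inhibitor of the growth kinase mTORC1, *Ndrg1* a stress-response protein and *Ankrd37* an ankyrin-repeat protein, and all are HIF targets in other cells. *Ndrg1* was at 143, 473 and 429 CPM in Gli1+ replicates 1 to 3 and at 315, 698 and 422 CPM in Gli1- replicates 1 to 3, overlapping apart from the low Gli1+ replicate 1 and the high Gli1- replicate 2. Its log2 fold change of -0.46 (SE 0.58) was -0.10 without either of these. *Ankrd37* (ENSMUSG00000050914, chr8:45996902-46005707) was at 2.12, 1.11 and 0.735 CPM in Gli1+ replicates 1 to 3 and at 0.517, 0.663 and 0.476 CPM in Gli1- replicates 1 to 3. The groups did not overlap, yet these levels rest on 9 to 40 counts per library, and the log2 fold change was 1.25 (SE 0.86, edgeR unadjusted p = 0.185) and 0.71 without Gli1+ replicate 1. *Ddit4* was at 10.9 CPM in Gli1+ replicate 1 and at 81.8 to 128 CPM in the other libraries, and its log2 fold change of -0.51 (SE 0.74) was -0.02 without Gli1+ replicate 1.

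The collagen prolyl hydroxylase subunits *P4ha1* and *P4ha2*, which stabilise the collagen triple helix, did not separate the groups. *P4ha1* was at 238, 220 and 208 CPM in Gli1+ replicates 1 to 3 and at 161, 383 and 184 CPM in Gli1- replicates 1 to 3. The Gli1+ libraries sat between the lowest and the highest Gli1- library. *P4ha2* was at 96.2, 152 and 196 CPM in Gli1+ replicates 1 to 3 and at 70.7, 144 and 119 CPM in Gli1- replicates 1 to 3, higher in Gli1+ cells in each pair by a log2 fold change of 0.41 (SE 0.45, edgeR adjusted p = 0.9999) that was 0.15 without Gli1+ replicate 3.

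Levels also differed between replicate numbers. Of the 40 genes, 12 were at least 1 log2 unit higher in the replicate 2 libraries than in the mean of the others, against 24.3% of all genes tested, and 3 were at least 1 unit lower, against 19%. The 12 were led by *Aldoc* (3.50), *Higd1a* (2.45) and *Bnip3* (2.24), and the 3 were *Hk2* (-1.30), *Slc16a1* (-1.09) and *Slc16a3* (-1.06). Gli1+ replicate 1 was the lowest library for 18 of the 40 genes, against 36.1% of all genes. Of these 18, 14 belong to the glycolysis and lactate list.

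**Figure D3:**
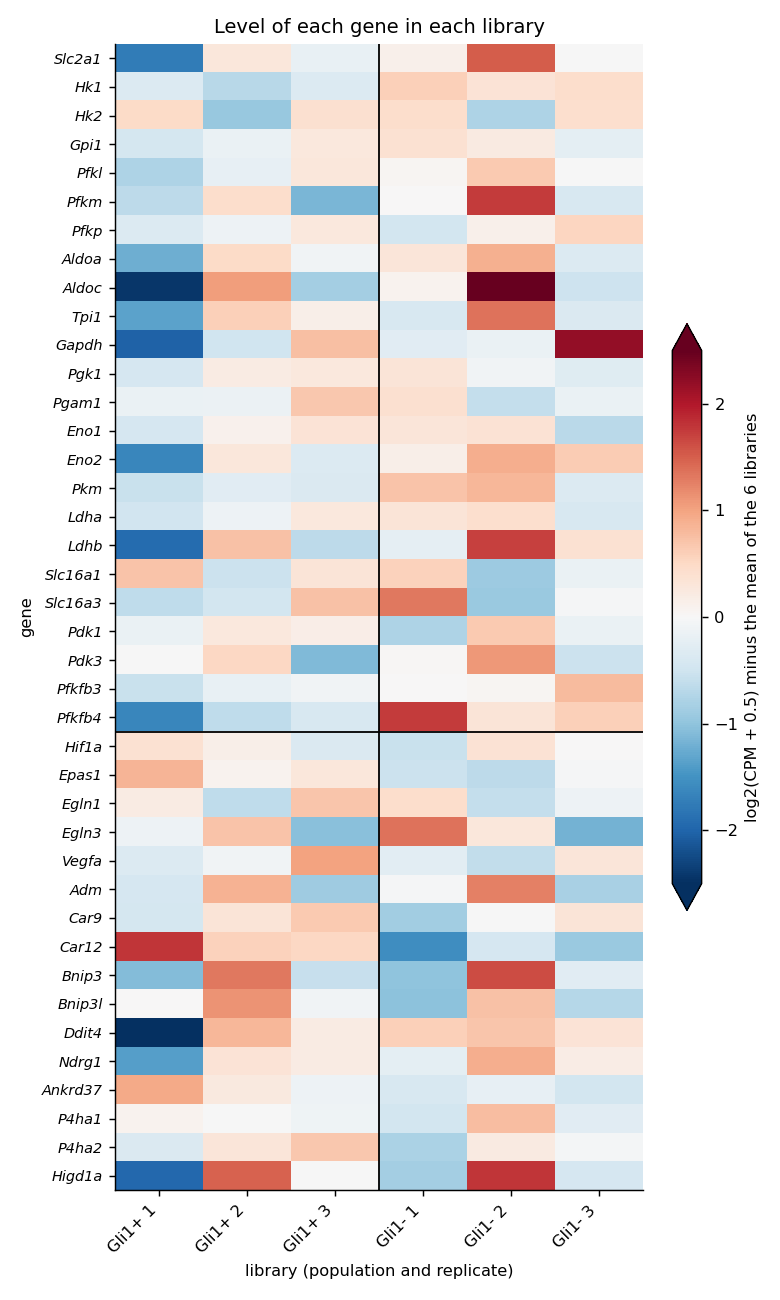
Level of each gene (rows) in each library (columns, replicates 1 to 3 of each population) as log2(CPM + 0.5) minus the gene's mean over the 6 libraries. The lines divide the populations and the lists of 24 and 16 genes, and the colour scale saturates at its ends. Blue cells gather in Gli1+ replicate 1, the lowest library for 14 of the 24 glycolysis and lactate genes, and red cells for *Aldoc*, *Bnip3* and *Higd1a* in both replicate 2 libraries.

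The share of one gene in its family's summed level per kb compares isozymes within a library, with no scaling between libraries. Of 14 shares only that of *Pfkfb4* in *Pfkfb3* and *Pfkfb4* did not overlap, at 1.96%, 3.62% and 4.02% in Gli1+ replicates 1 to 3 and 16.1%, 6.29% and 4.65% in Gli1- replicates 1 to 3. The mean was 3.20 ± 1.09% (SD, n = 3) against 9.03 ± 6.21% (SD, n = 3), with a 2-sided exact permutation p of 0.1 (adjusted p = 0.636 over the 14 shares). An exact test of 3 against 3 libraries cannot go below 0.1, so none of the shares could have passed 0.05. Any share without overlap gets this p of 0.1. No background over other gene families was computed for the counts of shares given here and below. The 16.1% came from the leukocyte-rich Gli1- replicate 1, and the nearest libraries of the 2 groups were at 4.02% and 4.65%.

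The shares of *Hk2*, *Epas1* and *Bnip3l* were higher in Gli1+ cells in 3 of 3 pairs. *Hk2* made up 79.2 ± 7.23% (SD, n = 3) of hexokinase 1 and 2 in Gli1+ cells and 67.9 ± 9.17% (SD, n = 3) in Gli1- cells, beside log2 fold changes of -0.02 for *Hk2* and -0.92 for *Hk1*. *Bnip3l* made up 64.0 ± 10.3% (SD, n = 3) of its pair in Gli1+ and 48.85 ± 7.83% (SD, n = 3) in Gli1- cells. A further 6 shares were lower in 3 of 3 pairs, those of *Pfkm*, *Aldoc*, *Eno2*, *Ldhb*, *Pdk3* and *Pfkfb4*, and apart from *Pdk3* each is the gene with the lowest mean share of its family in both populations. The *Aldoc* share of Gli1+ replicate 1 was 0%, where 3 counts would give 0.0639%.

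**Figure D4:**
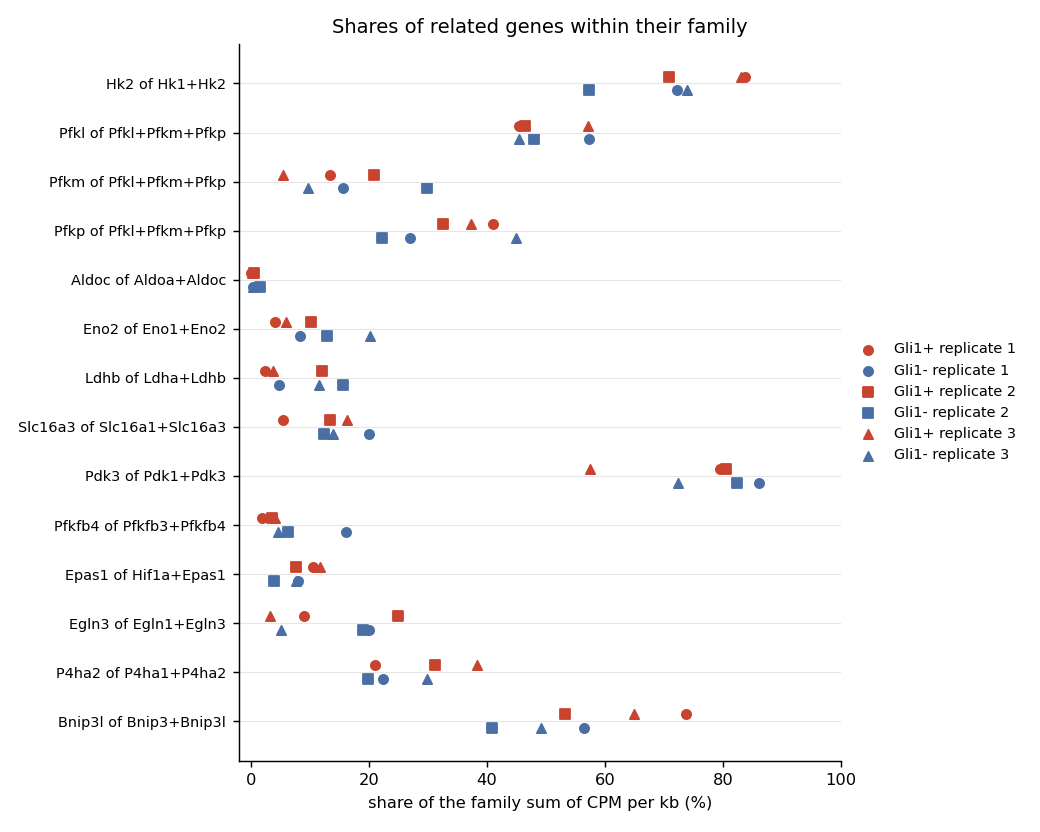
Share (x axis, percent) of each named gene in the summed CPM per kb of its family (y axis) in each library, with red for Gli1+ and blue for Gli1- and a symbol for each replicate number. Only the *Pfkfb4* share separates the populations, from 1.96% to 4.02% in Gli1+ and from 4.65% to 16.1% in Gli1- libraries, and the *Hk2*, *Epas1* and *Bnip3l* shares lie to the right in the Gli1+ library of each pair.

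Of 40 further glycolysis, glycogen and pyruvate genes, 33 were tested, 13 with a higher and 20 with a lower fitted level in Gli1+ cells, and the median log2 fold change was -0.21 against 0.00133 over all genes. Without overlap between the groups, 3 were higher, beside 4.04% of all genes tested, and 2 were lower, beside 4.45%. At an unadjusted p under 0.05, *Bpgm*, which makes 2,3-bisphosphoglycerate, was lower (1.69, 5.40 and 3.57 CPM against 7.29, 20.5 and 8.73 CPM in replicates 1 to 3, log2 fold change -1.77, edgeR adjusted p = 0.9999). *Pgm2*, a phosphoglucomutase, was higher (34.5, 26.5 and 40.5 CPM against 19.2, 16.3 and 17.5 CPM, log2 fold change 0.94, edgeR adjusted p = 0.9999). Neither gene's libraries overlapped between the groups. DESeq2 with the replicate block called 1 gene of this list lower, *Bpgm* (adjusted p = 0.0147), beside 2.05% of all genes. It also called 1 higher, beside 0.75%.

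Of 50 further HIF regulators and hypoxia targets, 49 were tested, 24 with a higher and 25 with a lower fitted level, and the median was -0.03. Here 1 gene had an unadjusted p under 0.05, *Loxl2*, a collagen cross-linking enzyme, which was at 925, 182 and 868 CPM in Gli1+ replicates 1 to 3 and at 181, 97.6 and 215 CPM in Gli1- replicates 1 to 3. It was higher in Gli1+ cells in each pair, by a log2 fold change of 2.002 (SE 0.68, edgeR adjusted p = 0.9999), with overlap only through Gli1+ replicate 2. DESeq2 with the replicate block gave *Loxl2* an adjusted p of 0.00113. In this list that fit called 1 gene higher, beside 0.75% of all genes, and 1 lower, beside 2.05%. The hexokinase of leukocytes, *Hk3*, was at 58.3 CPM in Gli1- replicate 1 and at 0.317 CPM or less elsewhere, and *Slc2a3* was at 40.3 CPM there and at 3.68 to 7.04 CPM elsewhere.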

How the data were processed

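RNA sequencing of 6 libraries, 3 of Gli1+ and 3 of Gli1- cells, was deposited as 1 table. The authors deposited raw counts, whole numbers of reads per gene, with no normalization and no pooling. Per the submitters' processing notes, HISAT2 2.0.5, featureCounts 1.5.0-p3 and mm10 were used, and the use of strand and of reads with several matches is not given in the sources used here. Poly(A) RNA was sequenced after an enzymatic digestion of cartilage. All 6 count columns were matched to samples by title, with 0 such columns unused, and the table holds no comparisons by the authors. Groups came from the sample titles.

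Genes were filtered with filterByExpr, which left 14801, scaled by TMM and tested with the quasi-likelihood test of edgeR 4.0.16 in R 4.3.3, with Benjamini-Hochberg adjustment over all genes tested. Calls needed an absolute log2 fold change over 1 and an adjusted p under 0.05, as in the study's methods. CPM used TMM-scaled totals, and levels were compared across genes per kb of the deposited gene length. That length equals the exon union of GENCODE M21 for 38 of the 40 genes. The genes shown for each role were instead picked by CPM. Low values are limited by counting error as well as by the spread between libraries, and the floor for a count of 0 (3 counts) covers counting error only. The scripts were tested on simulated data with known answers.

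The genes and lists were chosen with earlier results of these data known. In each role group the gene with the highest mean CPM and the one with the smallest unadjusted p are given in every library, as is any gene with an unadjusted p under 0.05 or without overlap. Of other pathway genes, up to 5 with the smallest unadjusted p under 0.05 are named. *Slc2a1*, *Hk3*, *Slc2a3*, *Gapdh*, *Eno2*, *Aldoc*, *Ddit4* and *Bnip3l* were given in more detail after their values were seen.

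Deviations of same-numbered libraries from their group means correlated across genes with r of 0.223, 0.72 and 0.471, all over 0.1, and the study's text gives both populations the same mice, so same-numbered libraries were treated as pairs. The labels do not tie a number to a mouse. Gli1+ replicate 1 correlated with Gli1- replicate 3 at r of 0.274, above its own number, and Gli1+ replicate 3 with Gli1- replicate 1 at 0.107, so the first pair is the least certain. The unpaired fit was kept as the main one because the study's methods describe no block.

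The alternatives were upper-quartile and RLE scaling, DESeq2 1.42.0 with and without the replicate block, limma-voom (limma 3.58.1), no filter, a filter at 1 CPM in 3 libraries, the replicate block in edgeR, each library left out in turn, both libraries of replicate 1 left out, the adjusted p alone, and isozyme shares without gene length. The blocked edgeR fit without replicate 1 was added after seeing the data. Isozyme shares were compared with 2-sided exact permutation tests over libraries. Promoter windows came from RefSeq. Figures were drawn with matplotlib 3.10.9 in Python 3.11.15.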

Additional observations from a re-analysis of the deposited data

How the results depend on the processing

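The absence of calls among the 40 genes held under upper-quartile and RLE scaling, DESeq2 without the pairs, limma-voom, no filter, the stricter filter (39 of the 40 genes tested, without *Ankrd37*), the replicate block in edgeR and the removal of any 1 library. Fits that called genes gave 27 over all genes (DESeq2), 267 (no filter), 414 (DESeq2 with replicate block) and 1201 (the blocked edgeR fit without both libraries of replicate 1, added after seeing the data, with 1 residual degree of freedom). In the last 2 of these, the calls were 1 and 4 glycolysis and lactate genes, 1 and 1 HIF factors and targets, 2 and 4 further glycolysis and pyruvate genes, and 2 and 3 further hypoxia genes. No filter called 1 further glycolysis gene. With the pairs, the calls thus depend on the tool and on replicate 1, and the cause was not tested. The edgeR block changed 0 calls; of the 40 genes 39 kept their direction with it, and *Eno1* went from -0.03 to 0.0019 on the log2 scale. The other turns of sign outside library removal were *Eno1* with limma-voom (0.0071) and *Hk2* with upper-quartile scaling (0.0092). The blocked fit without replicate 1 turned *Gpi1* (0.046), *Eno1* (0.38), *Ldha* (0.053), *Slc16a3* (0.64), *Pdk1* (-0.038), *Hif1a* (-0.31), *Egln3* (0.33) and *Higd1a* (0.043), and the median of the further glycolysis genes went from -0.21 to 0.0059. With libraries left out, that median ran from -0.42 to 0.15. The log2 fold changes that turned sign with libraries left out ran from -0.36 to 0.30 (*Hk2*), -0.45 to 0.042 (*Gpi1*), -0.41 to 0.077 (*Pfkp*), -3.76 to 0.070 (*Aldoc*), -0.86 to 0.37 (*Tpi1*), -2.21 to 0.039 (*Gapdh*), -0.086 to 0.42 (*Pgk1*), -0.10 to 0.68 (*Pgam1*), -0.30 to 0.29 (*Eno1*), -0.46 to 0.0076 (*Ldha*), -0.034 to 0.74 (*Slc16a1*), -0.98 to 0.68 (*Slc16a3*), -0.22 to 0.54 (*Pdk1*), -0.86 to 0.15 (*Pdk3*), -0.30 to 0.31 (*Hif1a*), -0.14 to 0.53 (*Egln1*), -1.13 to 0.40 (*Egln3*), -0.072 to 0.75 (*Vegfa*), -1.08 to 0.41 (*Adm*), -1.40 to 0.87 (*Bnip3*), -1.18 to 0.019 (*Ddit4*), -0.41 to 0.33 (*P4ha1*) and -1.35 to 1.03 (*Higd1a*). The number of isozyme shares without overlap was 1 to 7 with a library left out, since fewer libraries overlap less easily. With 3 libraries a group the spread limits what the tests can call, and the lowest genes, *Ankrd37* and *Aldoc*, are also limited by their counts.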
